A study of Mus musculus with 12 samples.

Results

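The *Apoa1*, *Apoc3*, *Apoa4* and *Apoa5* genes lie side by side on mouse chromosome 9 and encode apolipoproteins, the protein coats that give lipoprotein particles their shape and steer their fate in blood. They were examined in the livers of male C57BL/6J mice together with *Gm10680*, an antisense transcript annotated on the opposite strand of *Apoa4*. These 5 genes were taken by name from 54532 genes in the expression table. They were chosen by the readout itself, since the steep rise of *Apoa4* from ND-fed to control mice was already known, and the others were added for their position. All mice were 5 weeks old at the start and ate their diet for 26 weeks. ND-fed mice received a normal diet and control mice a high-fat diet without a supplement. HYA-treated mice received the high-fat diet with 1% HYA (10-hydroxy-cis-12-octadecenoic acid, which gut bacteria make from linoleic acid), and LA-treated mice the high-fat diet with 1% linoleic acid (LA). Each group had 3 mice, 12 in all, each with 1 RNA-seq library of 17169064 to 25220880 counted fragments. The high-fat diet was thus shared by control, HYA-treated and LA-treated mice, and the labels name no genetic change in any group.

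Apolipoprotein A-I, the product of *Apoa1*, is the main structural protein of high-density lipoprotein (HDL). Apolipoprotein C-III (*Apoc3*) slows the breakdown and clearance of triglyceride-rich particles, whereas apolipoprotein A-V (*Apoa5*), a far scarcer plasma protein, promotes their hydrolysis by lipoprotein lipase. Apolipoprotein A-IV (*Apoa4*) is made mainly by enterocytes and leaves the gut on chylomicrons, and mouse liver is known to make it too, in amounts that vary with lipid load. The transcription factor HNF4A is a known activator of this locus, and CREBH, the product of *Creb3l3*, is a known activator of hepatic *Apoa4*.

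In the GRCm38 build the cluster spans 43340 bases of chromosome 9. *Apoa1* (ENSMUSG00000032083, 46228580 to 46230466, plus strand) is followed after 2466 bases by *Apoc3* (ENSMUSG00000032081, 46232933 to 46235636, minus strand). *Apoa4* (ENSMUSG00000032080, 46240696 to 46243459, plus strand) starts 5059 bases further on, and *Apoa5* (ENSMUSG00000032079, 46268633 to 46271919, plus strand) lies another 25173 bases away. *Gm10680* (ENSMUSG00000074373, 46242621 to 46243529, minus strand) runs against the last exon of *Apoa4*. Of its 702 exonic bases, 632 (90.0%) are also exonic in *Apoa4*, where they make up 34.8% of the exonic bases. The remaining 70 bases, at the 5′ end of *Gm10680*, are the only stretch of its exons that *Apoa4* does not share, and they are printed here for that reason from the GENCODE M21 transcript (chr9:46243460-46243529, minus strand).
Gm10680: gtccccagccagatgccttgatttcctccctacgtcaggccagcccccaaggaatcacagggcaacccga

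The sequence just before each gene is shown because neighbours so close together differed widely in their diet difference. RefSeq promoter windows (GRCm38.p6, 250 bases before to 50 after a start site) were found for *Apoa1*, *Apoa4* and *Apoa5*. *Apoc3* and *Gm10680* are named only. The bases before the first annotated exon or start site, whichever came first, are given 5′ to 3′ on the plus strand for *Apoa1* (chr9:46228380-46228579), *Apoa4* (chr9:46240594-46240695) and *Apoa5* (chr9:46268358-46268607). The RefSeq start sites of *Apoa1* (46228630) and *Apoa4* (46240844) lie inside the annotated first exon, so bases next to those sites are not printed. Capitals mark matches to the motifs searched on both strands.
Apoa1: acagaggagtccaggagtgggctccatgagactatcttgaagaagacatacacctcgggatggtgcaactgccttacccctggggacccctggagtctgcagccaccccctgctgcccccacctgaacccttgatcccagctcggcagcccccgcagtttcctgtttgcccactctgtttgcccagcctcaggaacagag
Apoa4: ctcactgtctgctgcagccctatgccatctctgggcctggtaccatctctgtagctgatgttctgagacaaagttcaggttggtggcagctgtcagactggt
Apoa5: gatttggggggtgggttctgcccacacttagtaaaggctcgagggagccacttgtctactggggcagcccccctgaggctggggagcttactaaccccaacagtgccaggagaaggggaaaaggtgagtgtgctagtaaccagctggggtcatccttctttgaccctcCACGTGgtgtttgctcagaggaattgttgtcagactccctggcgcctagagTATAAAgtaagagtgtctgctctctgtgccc

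The *Apoa5* window held 1 match to TATAAA (the TATA box), from −31 to −26 relative to the first of its 2 RefSeq start sites, and 1 to CACGTG (an E-box), from −82 to −77. The whole windows of *Apoa1* and *Apoa4* held no match to either, nor to AGGTCA (a nuclear receptor half-site) or TGACG (part of a cAMP response element), and neither of these latter motifs occurred in the *Apoa5* window. Of all 32817 windows of the same length, 13.6% held TATAAA, 7.15% CACGTG, 16.3% AGGTCA and 20.8% TGACG. The 2 matches do not overlap, and the search says only which letters stand in these windows.

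*Apoa4* varied more across diets than the other 3 coding genes of the cluster. Levels are given as FPKM (fragments per kilobase of exon, relative to the library scale used for the deposited values), a scale corrected for gene length. *Apoa4* stood at 55.3, 53.1 and 62.1 FPKM in the 3 ND-fed mice and at 3946, 3121 and 3996 FPKM in control mice. HYA-treated mice had 2334, 1945 and 2458 FPKM, and LA-treated mice 3487, 3179 and 2578 FPKM. The lowest of the 9 mice on a high-fat diet was thus 31.3 times the highest ND-fed mouse, and every HYA-treated mouse lay below every control and every LA-treated mouse, whereas control and LA-treated mice overlapped. In order of mean level, control mice came first (3687 ± 491, SD, n = 3), then LA-treated (3081 ± 462), HYA-treated (2246 ± 268) and ND-fed mice (56.9 ± 4.71). Among all genes of the table, *Apoa4* ranked 794 to 905 by FPKM with ND, 11 to 12 in the controls, 18 to 25 with HYA and 12 to 15 with LA.

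**Figure D1:**
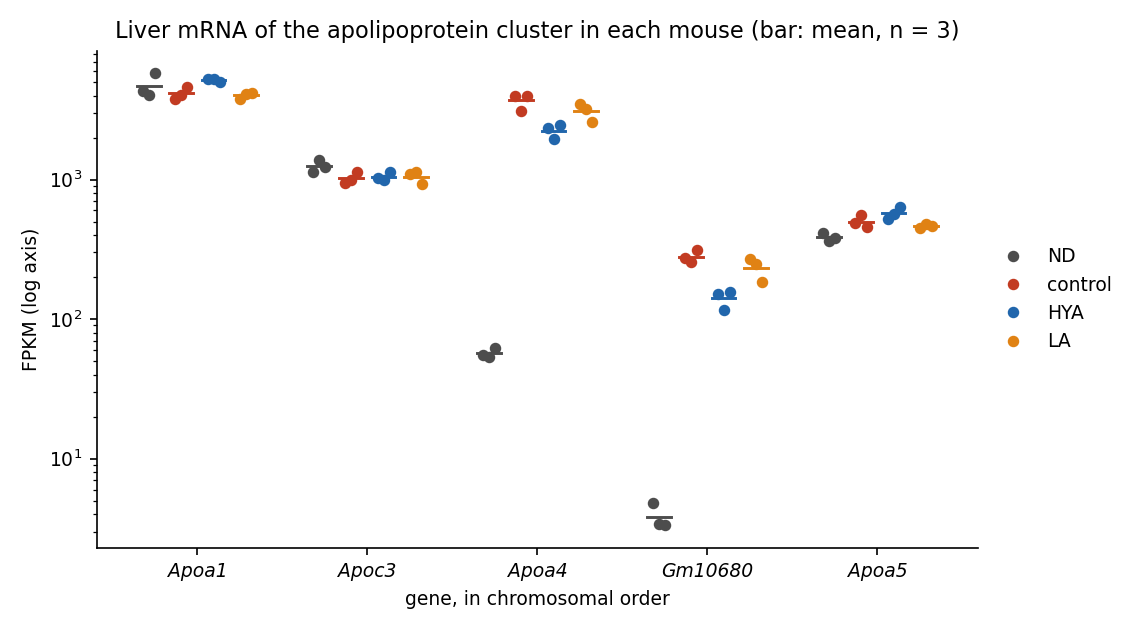
FPKM (log axis) of the 5 genes in chromosomal order, 1 point per mouse, with bars for the mean of 3 mice in each diet group. *Apoa4* and *Gm10680* of ND-fed mice lie far below all other groups, with means of 56.9 and 3.84 FPKM, while *Apoa1*, *Apoc3* and *Apoa5* stay within a narrow band.

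*Apoa1* was at a high level on every diet. ND-fed mice had 4338, 4006 and 5768 FPKM and control mice 3794, 4061 and 4582 FPKM. HYA-treated mice had 5282, 5241 and 5011 FPKM, and LA-treated mice 3751, 4105 and 4159 FPKM. All 3 HYA-treated mice exceeded all control and LA-treated mice, but they lay within the range of ND-fed mice. By mean level the order was HYA-treated (5178 ± 146, SD, n = 3), ND-fed (4704 ± 936), control (4146 ± 401) and LA-treated mice (4005 ± 221), and each group in this order overlapped the next. *Apoa1* ranked between 9 and 12 among all genes in every mouse.

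*Apoc3* held the narrowest range over the diets. It measured 1126, 1376 and 1239 FPKM with ND and 947, 999 and 1138 FPKM in the controls. With HYA it measured 1030, 986 and 1134 FPKM, and with LA 1087, 1129 and 928 FPKM. The 3 high-fat groups overlapped one another, and in each of them 1 mouse exceeded the lowest ND-fed mouse. The means were 1247 ± 125 FPKM (SD, n = 3) with ND, 1050 ± 75.8 with HYA, 1048 ± 106 with LA and 1028 ± 98.7 in the controls.

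*Apoa5* was the least abundant coding member in every mouse on a high-fat diet. It stood at 416, 365 and 384 FPKM with ND and at 484, 559 and 454 FPKM in the controls. With HYA it stood at 519, 567 and 634 FPKM, and with LA at 449, 482 and 463 FPKM. Every mouse on a high-fat diet exceeded every ND-fed mouse, the closest by 1.08 times. HYA-treated mice overlapped control mice but not LA-treated mice. The means ran from 573 ± 57.7 (SD, n = 3) in HYA-treated over 499 ± 54.2 in control and 465 ± 16.2 in LA-treated to 388 ± 25.6 in ND-fed mice.

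*Gm10680* was listed at 4.78, 3.41 and 3.33 FPKM in ND-fed mice (38 to 59 fragments each) and at 272, 257 and 312 FPKM in control mice. HYA-treated mice had 152, 115 and 157 FPKM, and LA-treated mice 270, 248 and 184 FPKM. Its order over the groups was that of *Apoa4*, with the same overlap between control and LA-treated mice and HYA-treated mice apart from both. Relative to *Apoa4* in the same mouse it amounted to 5.36% to 8.65% of its FPKM with ND, 6.89% to 8.22% in the controls, 5.93% to 6.50% with HYA and 7.13% to 7.81% with LA. The library kit named in the labels does not mark strand, and the strand setting of the counting was not given in the sources used here, so that fragments of *Apoa4* and *Gm10680* cannot be told apart in their shared exons. The level of *Gm10680* as a transcript of its own, and to a lesser degree that of *Apoa4*, is therefore uncertain.

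As a description of the comparison that the members were chosen by, the fitted log2 fold change of control against ND-fed mice on the log2(FPKM + 1) scale was 5.99 for *Apoa4*, 5.87 for *Gm10680*, 0.36 for *Apoa5*, −0.17 for *Apoa1* and −0.28 for *Apoc3*. In ratios of mean FPKM, *Apoa4* was 64.9 times, *Apoa5* 1.29 times, *Apoa1* 0.881 times and *Apoc3* 0.824 times its ND level. The large difference thus sat on *Apoa4* and the antisense transcript that shares its exons, between flanking genes that differed far less. FPKM sums per library were lower on the high-fat diet (342146 to 368132 in control against 407652 to 429286 in ND-fed mice). These sums also depend on the library scale behind the deposited values. That scale was 1.03 to 1.10 times the counted fragments in control and 0.917 to 0.953 times in ND-fed mice. A larger scale lowers every FPKM of its library, so the sums by themselves are no measure of the diet. Rescaling every library to the same sum (TPM) raised the median log2 difference of all genes by 0.21, and with it the direction of *Apoa1* turned from −0.17 to 0.069, while *Apoa4* moved to 6.24, *Apoa5* to 0.60 and *Apoc3* to −0.041. TPM is the scale that the study's methods name, and the deposited values are FPKM. The sign of *Apoa1* and the size of the differences of *Apoa5* and *Apoc3* in this comparison therefore depend on the scaling.

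**Figure D2:**
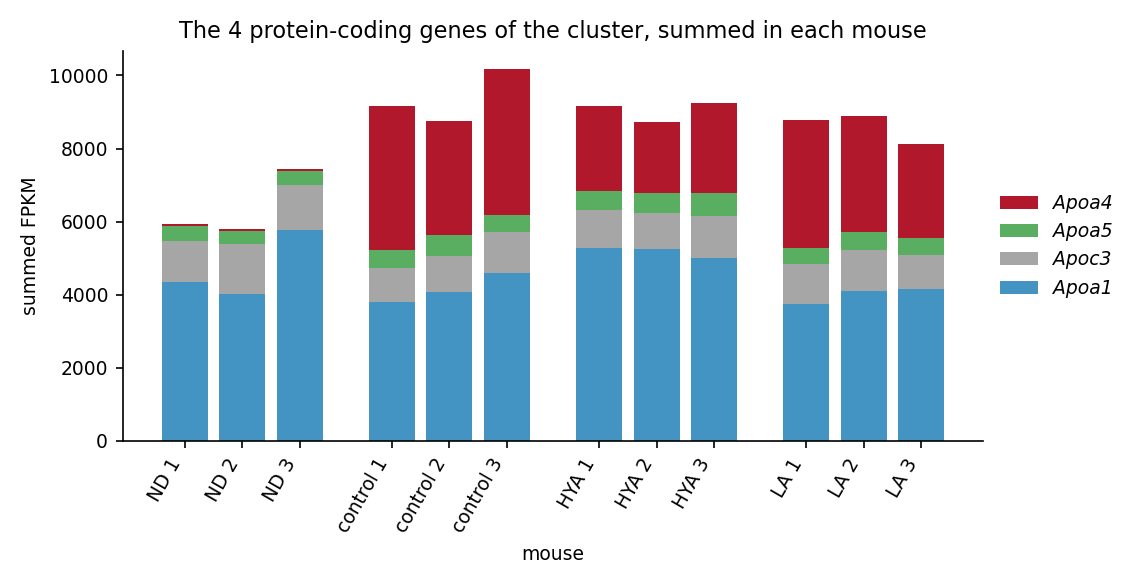
Summed FPKM of the 4 protein-coding genes in each mouse (vertical axis, linear from 0), split by gene, for the 3 mice of each diet group. *Apoa4* is a thin line on top of the ND columns and takes 35.7% to 43.0% of the column in control mice.

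As a share of the summed FPKM of the 4 coding genes, *Apoa4* made up 0.834% to 0.932% with ND, 35.7% to 43.0% in the controls, 22.3% to 26.6% with HYA and 31.7% to 39.7% with LA. *Apoa1* made up 69.1% to 77.4% of the sum in ND-fed mice and 41.4% to 46.5% in control mice, although its own FPKM overlapped between these groups. The sum itself was 6395 ± 918 FPKM (SD, n = 3) with ND, 9360 ± 733 in the controls, 9047 ± 269 with HYA and 8599 ± 412 with LA. The sums of control and HYA-treated mice overlapped, with a smaller share of *Apoa4* in HYA-treated mice.

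The comparisons among mice on a high-fat diet ask whether HYA or its parent fatty acid altered expression beyond the diet. They were tested with limma over the 11083 genes whose mean reached 1 FPKM, with Benjamini-Hochberg adjustment over those genes, and each group was 3 mice. All 5 genes passed this filter. The control mice had also entered the choice of the members.

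In HYA-treated against control mice, *Apoa4* and *Gm10680* fell, 2 of the 5 members, where 1.23% of all tested genes were called lower. None of the 5 was called higher, against 1.57% of all tested genes. These shares were themselves unstable, as the 136 genes called lower and 174 higher became 0 and 0 without HYA mouse 2 (1473 genes at an unadjusted limma p under 0.05, against 2055 with all mice), 12 and 17 without control mouse 1 and 276 and 377 without control mouse 2. They were 34 and 46 without control mouse 3, 45 and 39 without HYA mouse 1 and 32 and 27 without HYA mouse 3. The log2 fold change of *Apoa4* was −0.71 (95% confidence interval −1.01 to −0.41, limma adjusted p = 0.030), a level 0.609 times that of control mice, and it was lower in 3 of 3 mice. *Gm10680* changed by −0.99 (−1.36 to −0.62, limma adjusted p = 0.0225), a call lost under 5 of 14 alternatives. As their exons overlap and the handling of shared fragments is not given, they cannot be taken as independent calls. *Apoa1* had a mean 1.25 times that of control mice, with a log2 fold change of 0.32 (0.053 to 0.60), but did not pass after limma adjustment over all genes (adjusted p = 0.187). For *Apoa5* the difference was 0.20 (−0.0044 to 0.40, limma adjusted p = 0.281) and for *Apoc3* it was 0.032 (−0.20 to 0.26, limma adjusted p = 0.914).

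The *Apoa4* call was not stable to the loss of single mice or to the set of genes tested, although its size was. Without 1 mouse the log2 fold change lay between −0.83 and −0.61. Dropping control mouse 1 gave a limma adjusted p of 0.123, control mouse 3 of 0.0819, HYA mouse 1 of 0.0602, HYA mouse 2 of 0.135 and HYA mouse 3 of 0.0615. Dropping control mouse 2 gave 0.0100. Fitting only these 6 mice gave a limma adjusted p of 0.139, and dropping the filter on low values 0.0754. The fit of only these 6 mice called 0 of all 11083 tested genes higher and 0 lower.

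In LA-treated against control mice, no member was called in either direction, and limma called 0.0% of all genes higher and 0.0% lower. In this comparison 294 genes had an unadjusted p under 0.05, and voom with limma on recovered fragments also called 0. The log2 fold change of *Apoa4* was −0.26 (−0.56 to 0.039), and that of *Gm10680* −0.27 (−0.64 to 0.10). *Apoa1* differed by −0.047 (−0.32 to 0.22), *Apoc3* by 0.027 (−0.20 to 0.26) and *Apoa5* by −0.10 (−0.30 to 0.11). None of these unadjusted intervals reached a log2 fold change of 1 in either direction, but smaller changes are not excluded by them.

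HYA carries a hydroxyl group where LA has a double bond, and both were fed at 1% for the same 26 weeks, so that 1 pair of compounds could be compared at a matched dose and time. For HYA-treated against LA-treated mice none of the 5 members was called, where 0.235% of tested genes were called higher and 0.253% lower. *Apoa4* was lower by mean in HYA-treated mice, at 0.729 times the LA level, with a log2 fold change of −0.45 (−0.75 to −0.15, limma adjusted p = 0.126), and its ranges were apart. *Gm10680* gave −0.72 (−1.09 to −0.35, limma adjusted p = 0.0726), *Apoa1* 0.37 (0.0999 to 0.64, limma adjusted p = 0.155) and *Apoa5* 0.30 (0.093 to 0.50, limma adjusted p = 0.134). *Apoc3* differed by 0.0052 (−0.22 to 0.23). For *Apoa4*, *Gm10680*, *Apoa1* and *Apoa5* the unadjusted intervals left out 0, but none passed the adjustment over all genes.

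**Figure D3:**
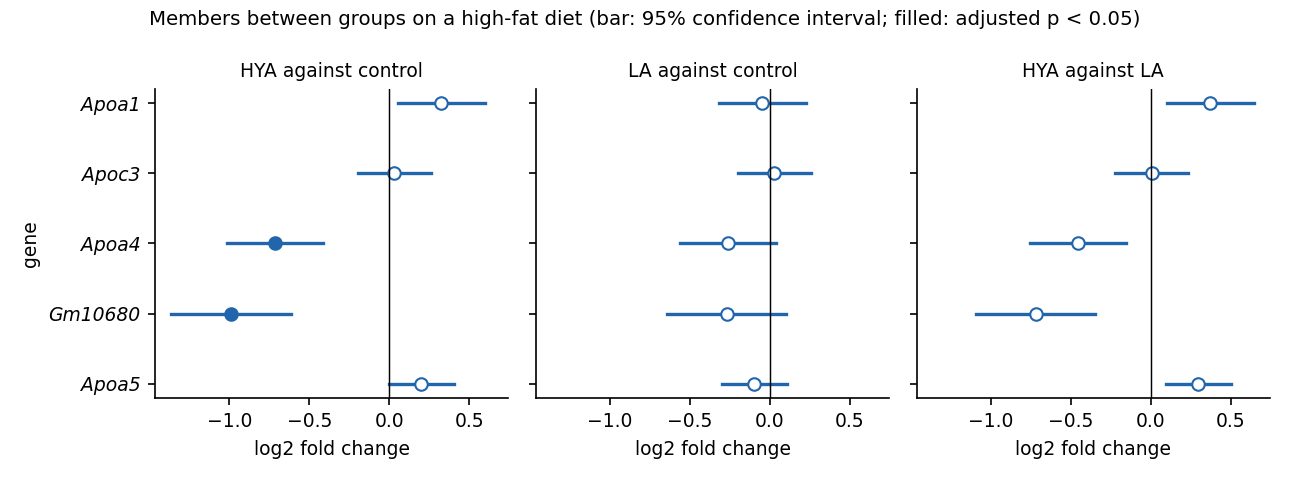
Log2 fold change of each member (horizontal axis) with its 95% confidence interval from limma in 3 comparisons of groups on a high-fat diet, 3 mice per group, filled where the adjusted p was under 0.05. *Apoa4* and *Gm10680* are filled in HYA against control, at −0.71 and −0.99, and no point is filled in the other panels.

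Against ND-fed mice, which also entered the choice of the members, 3 of the 5 were called higher in HYA-treated mice (*Apoa4*, *Gm10680* and *Apoa5*), where 8.72% of tested genes were called higher and 7.85% lower. In LA-treated mice 2 were called higher (*Apoa4* and *Gm10680*), where 14.4% were called higher and 16.6% lower. None was called lower in either. *Apoa5* had log2 fold changes of 0.56 (0.35 to 0.76, limma adjusted p = 0.00246) in HYA-treated and 0.26 (0.056 to 0.47, limma adjusted p = 0.0538) in LA-treated mice. The latter passed under 5 of 14 alternatives, among them TPM (0.49, limma adjusted p = 0.00136), and its adjusted p ranged up to 0.164. *Apoa4* of HYA-treated mice was still 39.5 times and that of LA-treated mice 54.2 times the mean ND level. Since these comparisons share the ND-fed mice, they are given side by side only.

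Ratios between members of the same mouse do not depend on how libraries are scaled to each other. The log2 ratio of *Apoa4* to *Apoa1* was −0.17 ± 0.22 (SD, n = 3) in control mice, −0.39 ± 0.29 in LA-treated and −1.21 ± 0.20 in HYA-treated mice. The difference of HYA-treated mice was −1.04 from control mice and −0.82 from LA-treated mice, with no overlap in either case (exact permutation p = 0.1 for both, the smallest that 3 against 3 mice allow, adjusted p = 0.214 over 15 ratio tests). *Apoa4* to *Apoc3* gave a difference of −0.75 for HYA-treated against control mice and of −0.46 against LA-treated mice (exact permutation p = 0.1 for both). In LA-treated against control mice these ratios differed by −0.21 for *Apoa1* and −0.29 for *Apoc3* (exact permutation p = 0.5 and p = 0.2). The ratio of *Apoc3* to *Apoa1* differed by −0.29 between HYA-treated and control mice (exact permutation p = 0.1). That of *Gm10680* to *Apoa4* differed by −0.28 between these groups (exact permutation p = 0.1). Such ratios show unequal change between the genes and not which of them changed.

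Over the 9 mice on a high-fat diet, *Apoa4* and *Gm10680*, which share exons, varied together (Pearson r = 0.976, exact permutation p = 5.51e-06, adjusted p = 7.72e-05 over 14 pairs, Spearman rho = 0.983, exact permutation p = 4.96e-05, adjusted p = 0.000694). The r was 0.945 without the 2 mice farthest from the median and 0.915 as deviations from the group means. As fragments of these genes cannot be told apart in their shared exons, a high r could follow from the counting alone. Its p is therefore no support for separate transcripts that vary together. The permutation also treated mice of different diet groups as interchangeable, though both genes were lower in HYA-treated mice. None of the other 13 pairs passed the adjustment. Pairs with *Apoa4* mix the lower level of HYA-treated mice with variation inside the groups. For *Apoa4* and *Apoa1*, r was −0.746 (exact permutation p = 0.0260, adjusted p = 0.0910) and rho −0.700 (exact permutation p = 0.0433, adjusted p = 0.101), but r was −0.469 without the 2 farthest mice and −0.228 inside the groups. For *Apoa4* and *Nr1d1*, the gene of the repressor REV-ERBα, r was −0.795 (exact permutation p = 0.0111, adjusted p = 0.0780) and rho −0.800 (exact permutation p = 0.0138, adjusted p = 0.0968), with −0.527 and −0.658 by the same checks. For *Apoa4* and *Creb3l3*, r was −0.666 (exact permutation p = 0.0568, adjusted p = 0.147). Their rho was −0.767 (exact permutation p = 0.0214, adjusted p = 0.0998), and the same checks gave −0.657 and −0.698. With *Ppara* the r of *Apoa4* was −0.600 (−0.587 inside the groups), and with *Hnf4a* −0.288 (0.249 inside the groups).

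The genes around the cluster were taken by position. Besides the members, 12 genes of the table started or ended within 250 kb of it, of which 6 had a mean of at least 1 FPKM and 3 were listed at 0 in all mice. Of these 6, 2 overlap a member on the opposite strand. *Gm47528* (46239841 to 46242032, minus strand), a single exon of 2192 bases of which 634 are exonic in *Apoa4*, had 0.180 FPKM with ND, 10.5 in the controls, 4.98 with HYA and 8.998 with LA, and its log2 fold change of control against ND was 3.29. It reached the mean of 1 FPKM only through the groups on a high-fat diet. *Gm47544* (46270035 to 46271365, minus strand), whose 524 exonic bases all lie in exons of *Apoa5*, had 23.04 FPKM with ND and 33.2 in the controls (log2 fold change 0.49). As both share exonic bases with a member, no p is given for them in the comparison that the members were chosen by. *Pafah1b2*, *Sik3*, *Zpr1* and *Bud13*, which flank the cluster without overlapping a member, had log2 fold changes of −0.064, 0.0079, 0.23 and −0.066 and were not called. In HYA-treated against control mice *Gm47528* was the only one of the 6 called, with a log2 fold change of −0.96 (limma adjusted p = 0.0323, lost under 8 of 14 alternatives). This call cannot be taken as independent of that of *Apoa4*.

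**Figure D4:**
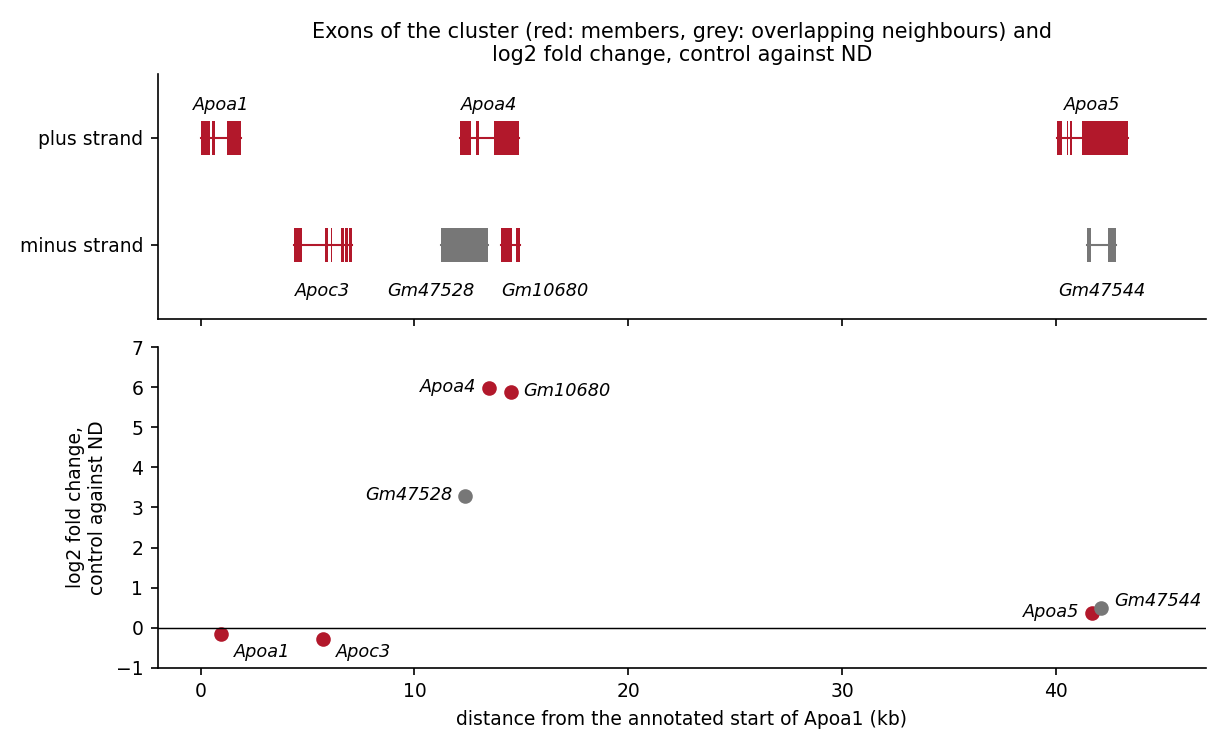
Upper panel, exons of the 5 members (red) and of 2 overlapping neighbours (grey) by strand, against the distance from the annotated start of *Apoa1* in kb; lower panel, log2 fold change of control against ND-fed mice at the middle of each gene. The values of 5.99, 5.87 and 3.29 belong to *Apoa4*, *Gm10680* and *Gm47528*, which overlap, and the other 4 points lie between −0.28 and 0.49.

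Among the 5 tested genes whose profile over the 12 mice was nearest to that of *Apoa4*, *Gm10680* came first, with a root mean square difference of 0.20 log2 units after each gene's own mean was removed. The median over all other tested genes was 2.49. *Cyp17a1* (a steroid hydroxylase, 0.66) followed at 1.67 ± 0.0796 FPKM (SD, n = 3) with ND, 59.6 ± 9.61 in the controls, 42.5 ± 7.77 with HYA and 49.4 ± 1.81 with LA. *Ly6d* (0.89), *Rgs16* (1.07) and *Lcn2* (1.10) came next. *Ly6d* had 88.9 ± 33.9 FPKM in control and 17.6 ± 4.18 in HYA-treated mice, and *Lcn2* 25.6 ± 8.58 and 12.8 ± 4.99. *Rgs16* went the other way by mean, with 70.1 ± 32.1 FPKM in control and 81.8 ± 27.5 in HYA-treated mice. The distance covers all 12 mice, including the ND-fed mice of the comparison that chose *Apoa4*. A near profile therefore need not share the difference between HYA-treated and control mice.

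Of 10 other apolipoproteins tested, none was called higher and 4 were called lower in control against ND-fed mice, where 16.2% of all tested genes were called higher and 19.1% lower, with a median log2 fold change of −0.17 beside −0.043 over all tested genes. With TPM 3792 of the 11083 tested genes were called higher and 732 lower. After rescaling to TPM, 0 were higher and 3 lower, and the median turned to 0.066. *Apom*, the HDL carrier of sphingosine-1-phosphate, fell from 134 ± 13.7 to 83.4 ± 10.03 FPKM (log2 fold change −0.69, limma adjusted p = 0.000561). *Apoc1* fell by 0.51 and *Apoh*, which encodes the abundant plasma glycoprotein beta-2-glycoprotein I, by 0.47 on the log2 scale. In HYA-treated against control mice 1 of the 10, *Apoh*, was called higher (log2 fold change 0.38, limma adjusted p = 0.0443), a call lost under 8 of 14 alternatives, while *Apoc4* gave 0.27 (limma adjusted p = 0.104). The median of the 10 was 0.22 beside 0.019 for all tested genes, of which 1.57% were called higher.

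Genes that form and remodel HDL, the particle built on apolipoprotein A-I, were read next, in a list that shares *Apoa2*, *Apof* and *Apom* with the other apolipoproteins. Of 12 tested, 7 were called lower and 2 higher in control against ND-fed mice (median −0.26), beside 19.1% and 16.2% of all tested genes, and 5 lower and 3 higher after rescaling to TPM. Under TPM 732 of all 11083 tested genes were called lower and 3792 higher. *Abca1*, the transporter that loads lipid onto apolipoprotein A-I, fell from 35.4 ± 2.69 to 21.4 ± 1.29 FPKM (log2 fold change −0.70, limma adjusted p = 3.9e-05). *Lipc*, encoding hepatic lipase, fell from 83.0 ± 7.45 to 45.8 ± 3.16 FPKM (−0.84), whereas *Pltp*, encoding phospholipid transfer protein, rose from 26.8 ± 4.67 to 73.2 ± 2.59 FPKM (1.43). In HYA-treated mice *Lipc* stood at 64.7 ± 2.17 FPKM, higher than in control mice (log2 fold change 0.49, limma adjusted p = 0.0292, lost under 7 of 14 alternatives). *Pon1*, encoding an HDL-bound antioxidant enzyme, gave 0.54 (limma adjusted p = 0.0709).

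Of 18 tested genes that act on triglyceride-rich lipoproteins, the particles that *Apoc3* and *Apoa5* regulate, 4 were called higher and 7 lower in control against ND-fed mice (median −0.16), beside 16.2% and 19.1% of all tested genes. After rescaling to TPM 5 were higher and 5 lower, and the median turned to 0.076. Under TPM 3792 of all 11083 tested genes were called higher and 732 lower. *Lrp1*, a remnant receptor, fell from 84.7 ± 4.45 to 56.1 ± 3.58 FPKM (−0.59), and *Sort1*, a sorting receptor, from 6.31 ± 0.607 to 2.05 ± 0.585 FPKM (−1.27). This list shares *Lipc* with the HDL genes, and *Apob*, *Apoc2* and *Apoe* with the other apolipoproteins. *Lipc* and *Lrp1* were the 2 called in HYA-treated against control mice, both higher, *Lrp1* by 0.30 (limma adjusted p = 0.0355, lost under 8 of 14 alternatives). Of all tested genes 1.57% were called higher there.

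Of 25 tested mRNAs of factors known to act on the cluster, none was called higher and 6 lower in control against ND-fed mice (median −0.056), beside 16.2% and 19.1% of all tested genes, but 6 higher and 2 lower after rescaling to TPM, where the median turned to 0.16. Under TPM 3792 of all 11083 tested genes were called higher and 732 lower. *Creb3l3* had 111 ± 3.94 FPKM (SD, n = 3) with ND, 101 ± 12.2 in the controls, 110.1 ± 7.30 with HYA and 95.6 ± 4.93 with LA (log2 fold change of control against ND −0.14, limma adjusted p = 0.217), with a sign that turned under TPM, to 0.093. *Hnf4a* fell from 152 ± 4.36 to 104 ± 13.4 FPKM (−0.54, limma adjusted p = 0.000531). *Ppara*, encoding the fatty acid sensor PPARα, went from 38.2 ± 4.18 to 52.3 ± 13.3 FPKM (0.42, limma adjusted p = 0.112). *Nr1d1* fell by 0.55 (limma adjusted p = 0.0263, lost under 7 of 14 alternatives) and *Nr5a2* by 0.35, while *Mlxipl*, encoding the carbohydrate sensor ChREBP, fell from 83.3 ± 6.52 to 42.6 ± 4.44 FPKM (−0.95). *Mlxipl* was the 1 called in HYA-treated against control mice, higher by 0.43 (limma adjusted p = 0.0390, lost under 8 of 14 alternatives). Of all tested genes 1.57% were called higher there.

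**Figure D5:**
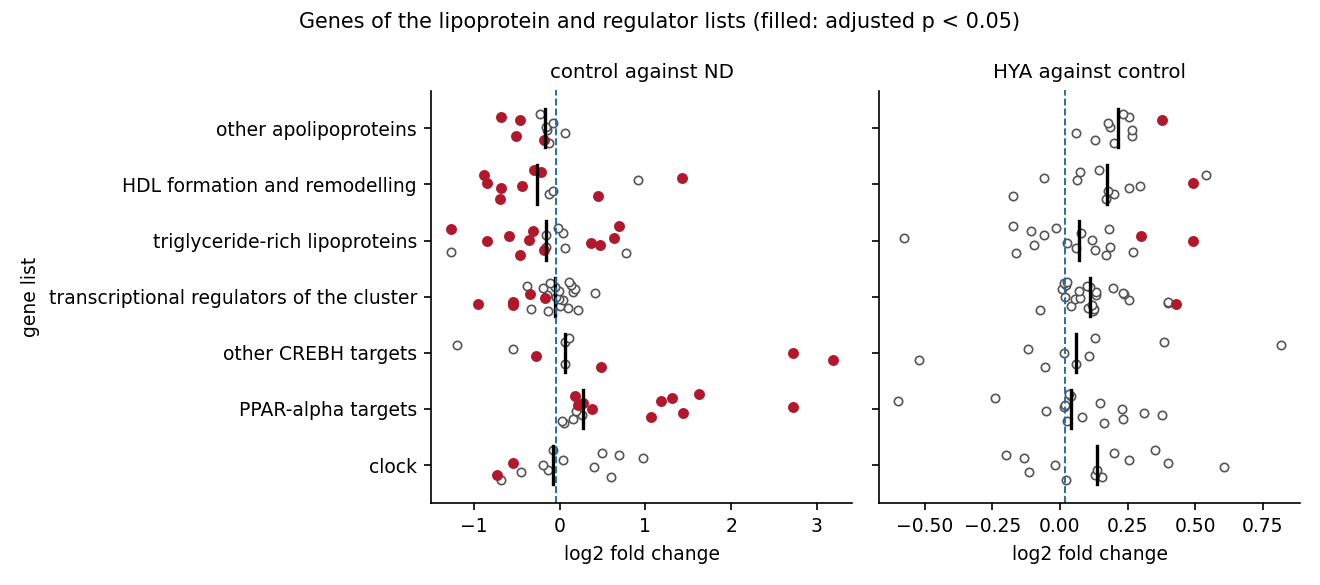
Log2 fold change (horizontal axis) of each tested gene in 7 lists, filled where the limma adjusted p was under 0.05, with a black bar for the median of the list and a dashed line for the median of all tested genes. In control against ND, 10 of 15 PPARα targets are filled on the right, whereas none of the other apolipoproteins is.

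Some other genes that CREBH or PPARα are known to activate rose with *Apoa4*. Of 9 tested CREBH targets outside the cluster, 3 were called higher and 1 lower in control against ND-fed mice (median 0.065), beside 16.2% and 19.1% of all tested genes. After rescaling to TPM 3 were higher and 0 lower, where 3792 of all 11083 tested genes were higher and 732 lower. Under TPM the share of the list called higher was thus close to that of all tested genes. *Cidec*, encoding a lipid droplet protein, rose from 8.55 ± 1.87 to 85.8 ± 16.2 FPKM (log2 fold change 3.19, limma adjusted p = 6.32e-07), and *Fgf21*, encoding a fasting-responsive hormone, from 0.899 ± 0.483 to 12.0 ± 5.51 FPKM (2.72), whereas *Crp* fell by 0.28, a call lost under 5 of 14 alternatives, with a log2 fold change of −0.048 under TPM. None of the 9 was called between HYA-treated and control mice, with −0.52 for *Cidec* (limma adjusted p = 0.120) and 0.82 for *Hamp* (limma adjusted p = 0.377). Of 15 tested PPARα targets, a list that also holds *Fgf21*, 10 were called higher and none lower (median 0.27), beside 16.2% and 19.1% of all tested genes, led by *Vnn1* (1.63) and *Plin2* (1.32). After rescaling to TPM 14 were higher, where 3792 of all 11083 tested genes were. None of these 15 was called in HYA-treated against control mice, where *Plin2* gave −0.24 (limma adjusted p = 0.0602).

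Of 13 tested genes of the circadian clock, a list that shares *Nr1d1* with the regulators, none was called higher and 2 lower in control against ND-fed mice (median −0.079), beside 16.2% and 19.1% of all tested genes. After rescaling to TPM none was called in either direction, where 3792 of all 11083 tested genes were called higher and 732 lower, and the median of the list turned to 0.14. *Clock* fell from 5.96 ± 0.328 to 3.25 ± 0.928 FPKM (log2 fold change −0.73, limma adjusted p = 0.0145, lost under 2 of 13 alternatives), and *Per1* gave 0.98 (limma adjusted p = 0.140). None of the 13 was called in HYA-treated against control mice, with 0.40 for *Nr1d1* (limma adjusted p = 0.226) and 0.14 for *Cry2* (limma adjusted p = 0.494).

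Because *Apoa4* is known above all as a gene of enterocytes, markers of other cells were read in the same livers. Of 11 enterocyte markers, 10 were below 1 FPKM on average, with a summed level of 0.0886 to 0.243 FPKM in ND-fed and 0.341 to 0.689 in control mice, and *Cdx1*, *Cdx2* and *Sis* were listed at 0 in all 12 mice. The other, *Fabp2*, stood at 66.1 ± 8.43 FPKM in ND-fed and 167 ± 14.4 in control mice. The summed FPKM of 8 hepatocyte markers was 38686 to 39796 with ND, 24755 to 28122 in the controls, 31435 to 32482 with HYA and 27139 to 28110 with LA. In control against ND-fed mice 7 of these 8 were called lower, in HYA-treated against control mice 1 was called higher, but none higher and 1 lower under TPM, and their part in the differences of the members was not tested. Over all tested genes 19.1% were called lower in the former comparison and 1.57% higher in the latter. The hepatocyte list also holds *Apoh*, counted above among the other apolipoproteins, and *Hnf4a*, counted among the regulators. In these bulk samples fewer cells of a type and less RNA per cell cannot be told apart.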

How the data were processed

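Livers of 12 mice, 3 per diet group, were sequenced with 1 library each. Per the submitters' processing notes, reads were cleaned with fastp, aligned to GRCm38 with HISAT2 2.0.5 and counted with featureCounts 1.5.0-p3. The authors deposited gene-level FPKM, not counts, whereas the study's methods name TPM as the scale of expression; the annotation release, the strand setting, the handling of reads that overlap more than 1 gene and the scaling between libraries are not given in the sources used here. Multiplying FPKM by gene length and dividing by a step fitted to each library gave whole fragments for 100.0% of values (within 0.1 of a fragment), 17169064 to 25220880 per mouse. The library scale implied by these steps was 0.917 to 1.10 times the counted fragments. Nothing in the labels gives a batch, and p-values measure the spread between these mice.

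The members and gene lists were chosen with earlier results of these data known. For the members no p in control against ND-fed mice is printed, since that comparison chose them. All comparisons used limma 3.58.1 (R 4.3.3) on log2(FPKM + 1), with trend, over the 11083 genes whose mean reached 1 FPKM, in 1 fit of all mice with group as the only term. Calls required an adjusted p under 0.05 (Benjamini-Hochberg over all tested genes). On this scale the change of low genes is understated. The code was tested on simulated data. Ratios and correlations used exact two-sided permutation tests. Genes named in the text were the members, neighbours whose mean reached 1 FPKM, the 5 profiles nearest to Apoa4, 4 regulators (Hnf4a, Creb3l3, Ppara and Nr1d1) and, of each pathway list, the 3 lowest p in control against ND and the 2 lowest in HYA against control; 1 gene named by this rule is not reported here. Of the cell markers, those at 0 in all mice and Fabp2 were named, Fabp2 after its values were seen. Alternatives were other scalings, TPM, another pseudocount, other filters, only the groups compared, a replicate block, voom with limma on recovered fragments, an added fold threshold and leaving out each mouse.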

Additional observations from a re-analysis of the deposited data

How the results depend on the processing

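Across the alternatives named with the methods, the log2 fold change of *Apoa4* kept its direction in each of the 6 comparisons. In control against ND it lay between 5.93 and 6.24, the highest under TPM (6.24). In HYA against control it was −0.71 without a filter on low values and −0.71 in a fit of only the 2 groups, neither of them called, and −0.83 to −0.61 without 1 mouse. The number of members called lower in HYA against control fell from 2 to 0 without the filter, to 0 with only the 2 groups and to 0 with an added absolute log2 fold change above 1, and ranged from 0 to 2 without 1 mouse. Without the filter 26045 genes were tested in place of 11083, of which 41 were called higher and 64 lower. With only the 2 groups, 0 of all tested genes were called higher and 0 lower, and the added threshold left 18 and 16. In HYA against LA the number of members called lower rose from 0 to 1 with voom on recovered fragments. Over all tested genes voom called 90 higher and 76 lower there, beside 26 and 28. TPM shifted the median of all genes by −0.11 in HYA against control and by 0.21 in LA against ND, and turned the sign of *Apoa1* in control against ND (0.069) and LA against ND (0.016), and of *Apoc3* in HYA against control (−0.094) and HYA against LA (−0.11). Under TPM, 3792 genes were called higher and 732 lower in control against ND, beside 1795 and 2115, and 97 and 400 in HYA against control, beside 174 and 136. It also turned *Bud13* (0.089), *Creb3l3* (0.093) and *Pafah1b2* (0.15) in control against ND, and *Creb3l3* (−0.0017), *Hnf4a* (−0.0067), *Gm47544* (−0.080) and *Sik3* (−0.10) in HYA against control. Near-0 differences turned without 1 mouse in control against ND for *Bud13* (−0.19 to 0.0061) and *Sik3* (−0.060 to 0.045). In HYA against control this held for *Apoc3* (−0.025 to 0.11), *Gm47544* (−0.046 to 0.21), *Pafah1b2* (−0.046 to 0.030) and *Sik3* (−0.015 to 0.044), in LA against control for *Apoa1* (−0.11 to 0.028) and *Apoc3* (−0.030 to 0.11), and in HYA against LA for *Apoc3* (−0.080 to 0.061). Log2 ratios that turned without 1 mouse were *Gm10680* to *Apoa4* (−0.082 to 0.045), *Apoc3* to *Apoa1* (−0.0013 to 0.19) and *Apoa5* to *Apoa1* (−0.19 to 0.046) in LA against control, and *Apoa5* to *Apoa1* in HYA against LA (−0.17 to 0.0096). The cause of these turns was not tested.

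Deviations of mice of different groups that share a replicate number gave r between −0.396 and 0.294 over 18 pairs of libraries. Of these pairs 3 were above 0.1, among them HYA with LA mouse 1 (0.218) and HYA with LA mouse 3 (0.294). Differently numbered mice were not set beside them for reference. As the labels do not say that a number joins mice, the numbers were not taken to pair them. With the replicate number as a block, the log2 fold change of *Apoa4* in HYA against control stayed −0.71 (limma adjusted p = 0.0221), and 146 genes were called higher and 112 lower in HYA against LA, beside 26 and 28. With 3 mice per group, small differences of the members may go undetected.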

Other observations

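Lists of markers of the other cells of the liver moved with the diet as well. In control against ND-fed mice 6 of 9 tested stellate cell markers, 4 of 9 macrophage and Kupffer cell markers, 2 of 6 endothelial and 2 of 3 cholangiocyte markers were called higher by limma with Benjamini-Hochberg adjustment, and 1 macrophage marker was called lower. The only adipocyte marker tested was called lower. Over all tested genes 16.2% were called higher and 19.1% lower. After rescaling to TPM, 8 of the 9 stellate cell, 4 of the 9 macrophage, 5 of the 6 endothelial and 2 of the 3 cholangiocyte markers were called higher. On that scale 3792 of all 11083 tested genes were called higher and 732 lower. In HYA-treated against control mice 2 stellate cell, 1 macrophage and 2 cholangiocyte markers were called lower and none of these lists held a gene called higher. Over all tested genes 1.23% were called lower and 1.57% higher in this comparison. Each of these marker counts fell to 0 under some alternatives. Without HYA mouse 2 no gene of the whole table was called. The summed FPKM of the 9 stellate cell markers was 52.0 to 65.8 in ND-fed, 102 to 133 in control, 86.6 to 104 in HYA-treated and 112 to 137 in LA-treated mice.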
